A study of Mus musculus with 6 samples.

Results

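The Tnfaip3 locus of the mouse was examined over 140 kb of chromosome 10, from 18.69 to 18.83 Mb in genome build mm9, which holds the gene (near 18720700 to 18735500, on the minus strand), the sequence beyond its end and the region upstream of its start. Its members were all deposited peaks of p300, PU.1 and H3K4me1 that lie inside this window, 83 of 257266 peaks in the series, together with the reads of all 8 deposited read files in them. The members were chosen by their position and by the authors' peak calls, and the window was proposed with p300 results of these libraries in view, so the p300 peaks and the p300 reads at them are given as a description. Of the 83 peaks, 9 were p300 peaks after lipopolysaccharide (of 12237 in the genome), 4 were p300 peaks of untreated cells (of 12421), 23 were PU.1 peaks after lipopolysaccharide (of 74365), 19 were PU.1 peaks of untreated cells (of 73500) and 28 were H3K4me1 peaks of untreated cells (of 84743). None crossed an edge of the window. Merged over all lists they formed 33 regions that covered 34553 bp, 24.7% of the window.

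The series profiled chromatin of primary bone marrow-derived macrophages from female Fvb mice, on day 7 of differentiation, by chromatin immunoprecipitation and sequencing. Cells stimulated with lipopolysaccharide (LPS, 10 ng/ml, 2 h) were compared with untreated cells, for p300 with 2 replicate libraries in each condition and for PU.1 with 1 library in each condition. H3K4me1 and input DNA were sequenced in untreated cells alone, with 1 library each. The libraries held between 5503587 and 6428281 distinct reads. Cells were analysed in bulk, so a larger share of bound cells and more binding per cell cannot be told apart.

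Tnfaip3 encodes A20, a ubiquitin-editing enzyme that removes and adds ubiquitin chains on signalling proteins below Toll-like and tumour necrosis factor receptors and so limits NF-κB activity. The gene is itself a target of NF-κB and is part of a negative feedback loop in macrophages, in which LPS is sensed through Toll-like receptor 4. p300 is a histone acetyltransferase and coactivator that transcription factors bring to promoters and enhancers. PU.1, an Ets family factor, is bound across the macrophage genome and marks much of its enhancer repertoire, while H3K4me1, monomethylation of lysine on histone H3, is found around enhancers and flanks active promoters.

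The promoter of Tnfaip3 is shown because the strongest p300 peak of the window and the strongest PU.1 signal both lie on the gene's start. The sequence holds the 250 bases before the start of the gene in RefSeq, build GRCm38.p6, chr10:19015411-19015660, minus strand, printed in the direction of transcription. It was not placed on mm9. Capitals mark matches to an NF-κB motif (GGNNNTTCC) and to an AP-1 motif (TGANTCA), searched on both strands.
Tnfaip3 promoter: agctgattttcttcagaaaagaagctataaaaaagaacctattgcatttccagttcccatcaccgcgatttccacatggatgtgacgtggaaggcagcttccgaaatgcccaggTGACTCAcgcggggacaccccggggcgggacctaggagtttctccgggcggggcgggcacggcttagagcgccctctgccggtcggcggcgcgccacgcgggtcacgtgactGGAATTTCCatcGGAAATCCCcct
Counting back from the base before the start as -1, the NF-κB motif matched from -24 to -16, where the same bases match on both strands, and from -12 to -4 on the minus strand. This motif occurs in 15.7% of the 32851 RefSeq promoters of the same length. The AP-1 motif matched once, from -136 to -130, and is present in 6.75% of promoters. The E-box CACGTG matched once, from -33 to -28, against 6.02% of promoters, and the cyclic AMP response motif TGACGT matched once, against 6.47%. The Ets core GGAA, which PU.1 and many other factors share, matched 8 times and is present in 93.4% of promoters; 3 of the 8 lie inside the NF-κB matches. The longer PU.1 motif GAGGAAGT was not found in these 250 bases and is present in 2.44% of promoters.

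p300 was higher after LPS at 9 of the 10 merged p300 sites in the window. The sites are named by the distance of their centre from the centre of the untreated p300 peak at the promoter, positive upstream of the gene, and p300 levels are given as distinct reads scaled by the median ratio over all p300 sites of the genome. Of the 10 sites, 6 were in the LPS peak list alone, 3 in both lists and 1 in the untreated list alone, against 38.1%, 23.2% and 38.7% of the 19879 merged sites of the genome. The log2 fold change, LPS over untreated, had a median of 1.83 over the 10 sites and of 0.00 over the 19727 sites tested in the genome. Both LPS libraries lay above both untreated libraries at 9 sites, a pattern seen at 27.0% of all sites tested, and both lay below at 1, against 27.7%. limma voom, with Benjamini-Hochberg adjustment over all sites, called 4 of the 10 higher after LPS and none lower, against 1.97% called higher and 0.213% called lower among all sites tested. The 4 were the promoter and the sites 53.2, 62.6 and 66.8 kb upstream. Without LPS replicate 1, LPS replicate 2 or untreated replicate 2 no site was called, in the window or in the genome. Without untreated replicate 1 the promoter was no longer called. The sites were found with the p300 libraries that give these counts, so nothing is read from them.

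**Figure D1:**
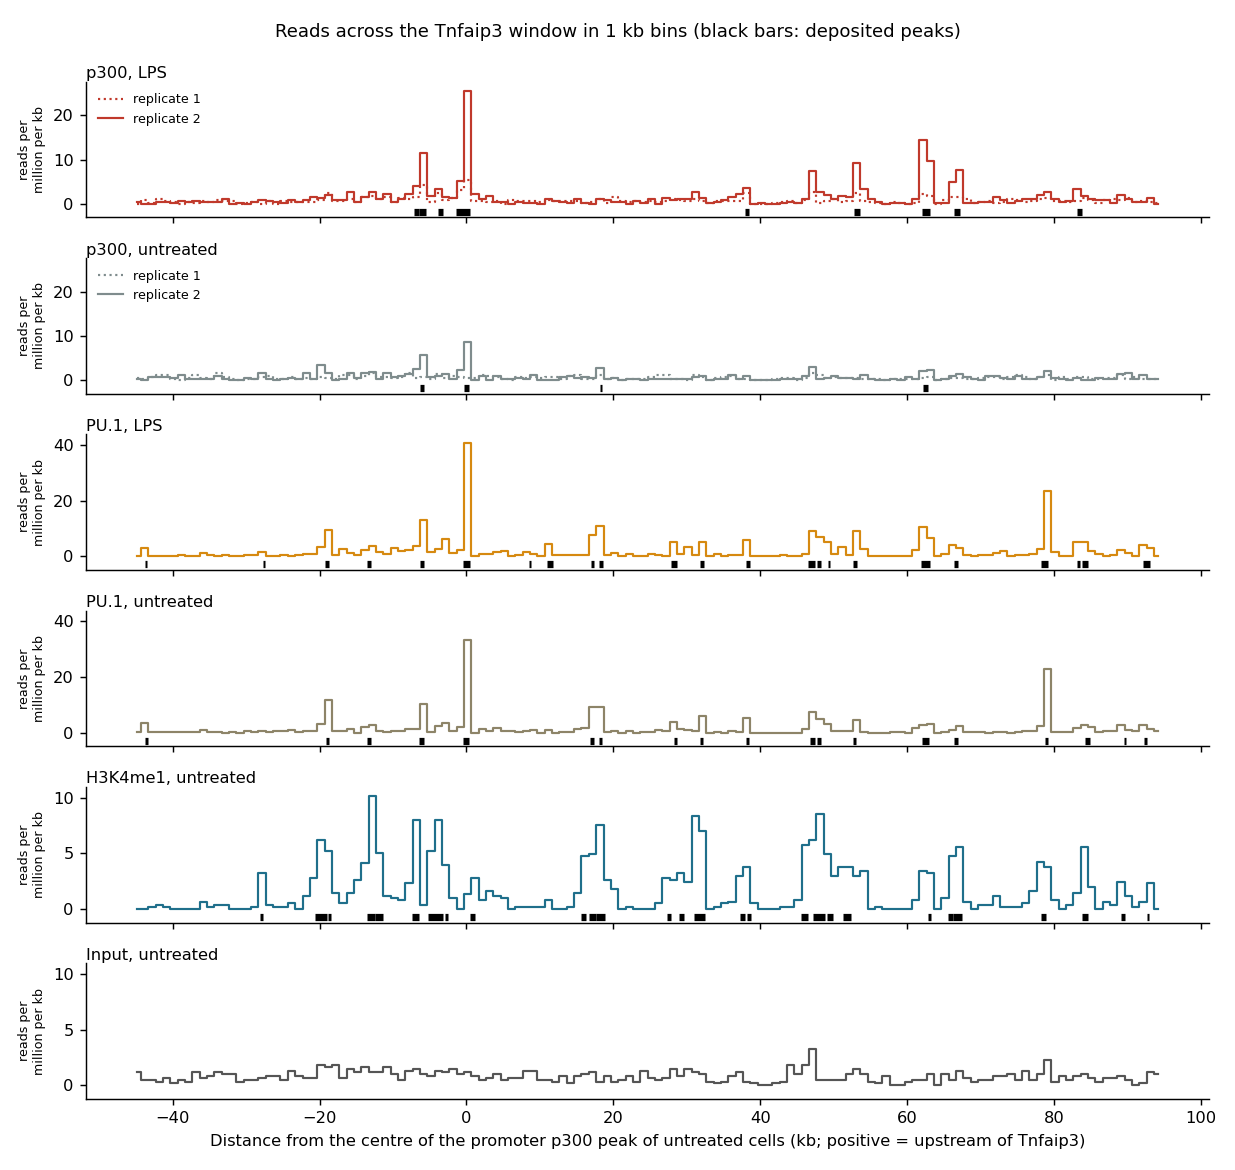
Reads per 1000000 distinct reads (RPM) in 1 kb bins across the 140 kb window, plotted as distance in kb from the promoter peak of p300 (positive upstream of Tnfaip3), with a row for each antibody and condition, LPS above untreated, and black bars for the deposited peaks. p300 has its highest bin at the promoter in both LPS replicates, and H3K4me1 of untreated cells is spread over the gene and the upstream region.

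The promoter carried the most p300. The site from 18733940 to 18735784 held 68.1 and 116 normalised p300 reads in LPS replicates 1 and 2 (47 and 178 reads as sequenced), against 14.9 and 37.0 in untreated replicates 1 and 2 (8 and 65 reads). The means were 92.1 ± 33.9 after LPS and 25.9 ± 15.6 in untreated cells (SD, n = 2 each), and the log2 fold change was 1.83 ± 0.56 (SE). Both LPS libraries were above both untreated libraries, and replicate 2 was the higher library in each condition. The score that the authors' peak caller gave this peak was 1329.27 after LPS, rank 51 of the 12237 peaks of that list, and 258.68 in untreated cells, rank 1173 of 12421. The log2 fold change was 1.21 without untreated replicate 1 and 2.43 without LPS replicate 1.

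Within the gene, 3 further p300 sites lay between the promoter and 6.8 kb downstream of it. At the site 6.0 kb downstream (18728919 to 18729770), which was in both p300 lists and both PU.1 lists, p300 had 34.8 and 45.0 normalised reads in the LPS replicates, against 7.44 and 19.9 in the untreated replicates. All 4 values kept the conditions apart, with means of 39.9 ± 7.22 after LPS and 13.7 ± 8.82 untreated. The log2 fold change was 1.38 ± 0.55 (SE), or 2.18 without untreated replicate 2 and 0.97 without untreated replicate 1. Next to it, the site from 18728214 to 18728806 held 8.69 and 13.0 normalised reads after LPS, against 5.58 and 6.83 untreated, with a log2 fold change of 0.75 ± 0.63. The site from 18731522 to 18732087, 3.5 kb downstream, was thinly covered too, with 7 and 16 reads as sequenced after LPS, against 3 and 4 untreated. Over both replicates the ratio at this site was 3.39, with an exact 95% interval of 1.41 to 9.35 that covers counting error only. The last pair of sites was in the LPS list alone and was not under a PU.1 peak of either condition. Whether a site is exonic or intronic was not assigned, because no annotation of mm9 was used here.

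Upstream of the gene, the region beyond 50 kb held 4 sites of p300, each higher after LPS. The strongest lay 62.6 kb upstream (18797317 to 18798532) and had 31.9 and 90.0 normalised reads in the LPS replicates, against 13.0 and 14.2 in the untreated replicates. The untreated libraries were close to each other, while the LPS libraries differed from each other by more than the means of the conditions did, with means of 60.9 ± 41.1 and 13.6 ± 0.854 and a log2 fold change of 1.84 ± 0.55. It was 2.71 without LPS replicate 1 and 1.24 without LPS replicate 2. At 66.8 kb upstream (18801708 to 18802500) the LPS replicates had 18.8 and 39.8 normalised reads, against 7.44 and 6.26 in the untreated replicates. The log2 fold change was 2.00 ± 0.59, or 2.59 without LPS replicate 1 and 1.52 without LPS replicate 2. At 53.2 kb upstream (18788057 to 18788948) the LPS replicates had 18.8 and 34.6, against 5.58 and 1.14 untreated, with means of 26.7 ± 11.1 and 3.36 ± 3.14. The 53.2 kb site had the largest log2 fold change of the 10, 3.67 ± 0.85. It rests on 3 and 2 untreated reads, and without untreated replicate 2 it was 1.92. The ratio of its summed reads was 13.6, with an exact 95% interval of 5.55 to 43.3 for counting error alone. The farthest site, 83.5 kb upstream (18818463 to 18819190), had 5 and 23 reads as sequenced after LPS, against 3 and 2 untreated. Its summed ratio was 5.78 (2.20 to 19.2, for counting error alone). The log2 fold change there was 2.59 ± 0.87 (SE), but 0.81 without untreated replicate 2 and 3.10 without untreated replicate 1.

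**Figure D2:**
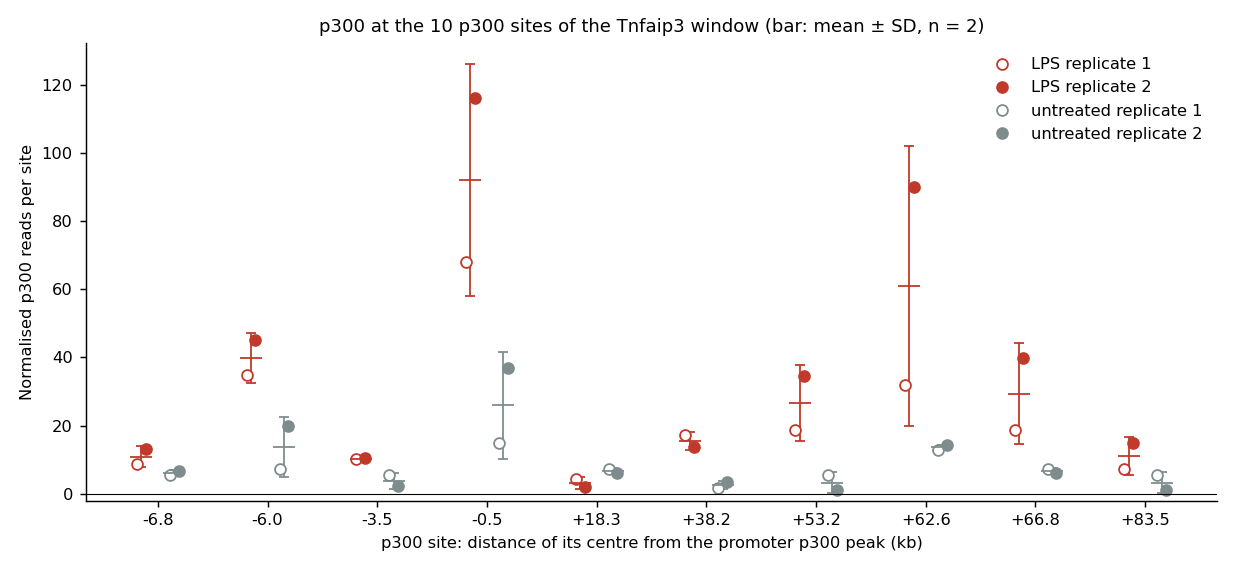
Normalised p300 reads at the 10 p300 sites, ordered along the window, with each library as a point, the mean and SD of each condition as a bar (n = 2) and LPS left of untreated. The 2 LPS points lie above the 2 untreated points at every site but the one 18.3 kb upstream, where both lie below.

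Between the gene and 50 kb upstream there were only 2 p300 sites, and they went opposite ways. At 38.2 kb upstream (18773258 to 18773863) p300 had 12 and 21 reads as sequenced after LPS, against 1 and 6 untreated. The log2 fold change was 2.18 ± 0.83 (SE). The summed ratio was 4.86, with an exact interval of 2.12 to 13.0 that covers counting error only. At 18.3 kb upstream (18753466 to 18753856) p300 had 4.35 and 1.96 normalised reads after LPS, against 7.44 and 6.26 untreated, with means of 3.15 ± 1.69 and 6.85 ± 0.834. This was the only site of the window in the untreated list alone and the only one lower after LPS, with a log2 fold change of -1.26 ± 0.89. It rests on 6 reads after LPS and 15 untreated, and the summed ratio of 0.413 had an exact interval of 0.131 to 1.13, which includes 1.

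The 2 libraries of a condition did not enrich these sites equally. Set against input at equal numbers of distinct reads, and leaving out the 18.3 and 38.2 kb sites, where input had 1 read, LPS replicate 1 was between 1.10 and 6.60 times input and LPS replicate 2 between 3.48 and 18.0 times over the other 8 sites. Untreated replicate 1 was between 0.314 and 0.942 times input and untreated replicate 2 between 0.227 and 8.95 times. Input had between 4 and 11 reads at these 8 sites, so single ratios are imprecise. The size of each library measured over all p300 sites, as a percentage of the largest, was 39.3 and 87.3 in LPS replicates 1 and 2, and 30.6 and 100 in untreated replicates 1 and 2. The part of this unequal enrichment in the results at single sites was not tested. Scaling by the distinct reads of each library in place of the median ratio left no site called, in the window or in the genome, and kept the direction of all 10.

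PU.1 sites were called without the p300 libraries, though with the PU.1 libraries compared here. Its 42 peaks merged into 24 sites, of which 5 were in the LPS list alone, 18 in both lists and 1 in the untreated list alone, against 17.2%, 66.7% and 16.1% of the 87958 merged PU.1 sites of the genome. Over the 24 sites there were 1268 reads after LPS and 950 in untreated cells, a scaled ratio of 1.33 with an exact 95% interval of 1.23 to 1.45. With 1 library in each condition there is no test of the conditions, and the interval covers counting error only. PU.1 reads were also higher between the peaks. Outside the merged regions of all lists the window held 65.4 RPM of PU.1 after LPS, against 38.4 RPM untreated. The part of this in the ratios at the sites was not tested. Of the 17 sites with at least 40 reads in all, 5 had an interval wholly above 1 and none had one wholly below 1, against 7.92% and 8.81% of the 42939 such sites in the genome. The median ratio of these 17 was 1.28, against 0.972 over the genome, where the quartiles were 0.805 and 1.18.

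PU.1 signal was strongest at the promoter in both conditions. The PU.1 site there (18734822 to 18735826) had 249 reads after LPS, against 194 in untreated cells, a ratio of 1.28 (1.06 to 1.56). The next by reads lay 78.7 kb upstream (18813573 to 18814507), with 151 reads after LPS, against 143 untreated, and a ratio of 1.06 (0.834 to 1.34). It held the highest PU.1 score of the untreated list in the window, 848.45, and had 521.42 after LPS, yet no p300 peak of either condition overlapped it. The site 62.6 kb upstream had 104 reads after LPS, against 35 untreated, a ratio of 2.97 (2.01 to 4.49), which was the largest among the 4 PU.1 sites with the most reads. The site 6.1 kb downstream of the start, within the gene, had 74 reads after LPS, against 61 untreated, with a ratio of 1.21 (0.853 to 1.73) whose interval includes 1.

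Other PU.1 sites are named because of their values. The site 11.4 kb upstream (18746349 to 18747078) had 28 PU.1 reads after LPS, against 3 untreated, a ratio of 9.33 with a wide interval of 2.88 to 48.0, and it lay under no p300 peak. The sites 52.9, 66.6 and 83.4 kb upstream had 56, 36 and 29 reads after LPS, against 25, 15 and 8 untreated, and each lay under a p300 peak of the LPS list. Their ratios were 2.24 (1.37 to 3.75), 2.40 (1.28 to 4.72) and 3.63 (1.62 to 9.18). The site 92.6 kb upstream, under no p300 peak, also had an interval above 1, with 42 reads after LPS, against 22 untreated, and a ratio of 1.91 (1.11 to 3.36). The site 84.3 kb upstream lay under a p300 peak of the LPS list, and its ratio of 1.46 had an interval of 0.884 to 2.46. At the 52.9, 62.6, 66.6 and 83.4 kb sites the LPS library held more PU.1 reads than the untreated one beyond counting error, while the interval at the 78.7 kb site between them includes 1.

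**Figure D3:**
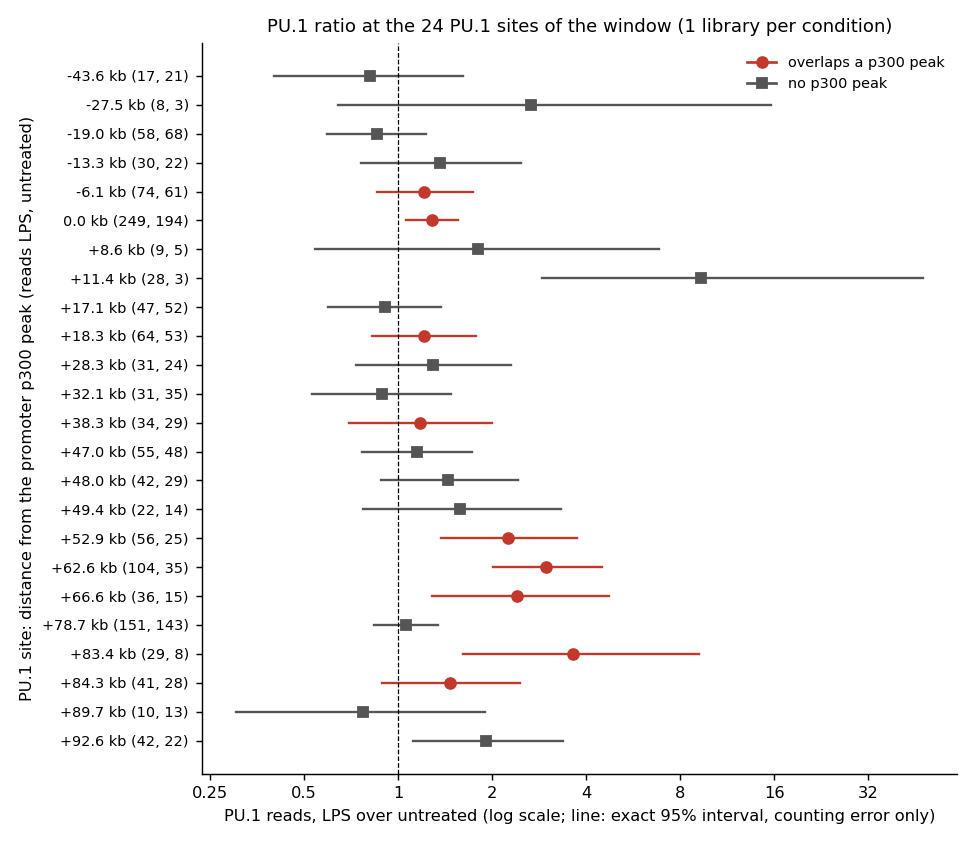
Ratio of PU.1 reads, LPS over untreated, on a log axis at the 24 PU.1 sites with exact 95% intervals for counting error, ordered along the window and marked by overlap with a p300 peak; the numbers beside each site are reads after LPS and untreated. The sites under a p300 peak between 52.9 and 83.4 kb upstream lie above 1 with their intervals, and the 78.7 kb site lies at 1.06.

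PU.1 sites without a p300 peak were more thinly covered than those with one: 1 of the 9 with a peak and 6 of the 15 without had under 40 PU.1 reads. The 9 PU.1 sites under a p300 peak had 687 PU.1 reads after LPS and 448 untreated, a ratio of 1.53 (1.36 to 1.73), with single sites between 1.17 and 3.63. The 15 without one had 581 after LPS and 502 untreated, a ratio of 1.16 (1.03 to 1.31), with single sites between 0.769 and 9.33. All 9 sites under a p300 peak had a ratio above 1, against 10 of the 15 others; among sites with at least 40 reads these counts were 8 of 8 and 6 of 9. The p300 peaks chose this split, which is a description. Across the 10 p300 sites the log2 fold change of p300 and the log2 ratio of PU.1 had a Pearson r of 0.16 and a Spearman rho of 0.18, and across the 19 PU.1 sites tested for p300 these were 0.34 and 0.47. The points share libraries and local read depth, many are thinly covered, and correlations this weak are given as description only.

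PU.1 peaks covered 8 of the 10 p300 sites. At those 8 the points of highest p300 and PU.1 signal were between 8 and 107 bp apart, with a median of 50.0 bp. At the 2 sites without a PU.1 peak, 6.8 and 3.5 kb downstream, they were 51 and 96 bp apart. Both points were searched inside the same site, which favours short distances, and no genome background was computed. Of the p300 peaks, 7 of the 9 after LPS overlapped a PU.1 peak after LPS and 4 of the 4 untreated overlapped an untreated PU.1 peak. H3K4me1 peaks of untreated cells covered 6 of the 10 p300 sites. Among the 10, 4 had both, 4 had PU.1 without an H3K4me1 peak and 2, the weak intragenic pair, had H3K4me1 without a PU.1 peak. No genome share was computed for these overlaps, so nothing particular to this locus is read from them.

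p300 reads at PU.1 sites were then tested, since the PU.1 peaks were called without the p300 libraries. Of the 24 sites, 19 held at least 10 p300 reads over the 4 libraries, 18 of them with a higher and 1 with a lower level after LPS. limma voom with Benjamini-Hochberg adjustment called 0 of the 19, against 0.00214% (1 site) called higher and 0.0% called lower of the 46838 tested in the genome, and the smallest adjusted p in the window was 0.601. At an unadjusted p under 0.05 there were 10 of 19, against 4.74% of all sites, and limma-trend called 1, against 0.196% called higher in the genome. At that unadjusted threshold, scaling by distinct reads gave 1 in place of 10 and by background bins 2. In the genome these scalings gave 222 and 227 of the 46838 sites, against 2222 as reported, so the genome had fewer too. The level was higher after LPS at 18 of the 19 without LPS replicate 1 or without untreated replicate 1. It was higher at 15 without LPS replicate 2 and at 14 without untreated replicate 2. Both LPS libraries were above both untreated libraries at 12 of the 19, against 14.9% of all sites, and below at 1, against 17.2%. Because the window was proposed with such results known, these shares are not independent support. The median log2 fold change was 1.78 over the 19 sites and -0.01 over all sites tested.

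Of these PU.1 sites, 9 lay under a p300 peak, most of them a peak of the LPS list called on the same p300 reads, so a split by p300 peaks fixes part of the difference and is a description. The 9 had log2 fold changes of p300 between -1.12 and 4.09, with a median of 2.05, and the 10 tested sites with no p300 peak had values between 0.14 and 2.99, with a median of 0.92. The 4.09, at 52.9 kb upstream, rests on 1 and 1 untreated reads. The 2.99, at 48.0 kb upstream, rests on 0 and 13 reads after LPS, against 5 and 0 untreated, so the conditions overlapped there. At the 78.7 kb site, p300 had 8 and 18 reads as sequenced after LPS, against 9 and 13 untreated, so the conditions overlapped and the log2 fold change was 0.14 ± 0.62 (SE). The site 47.0 kb upstream, chosen after its values were seen, had 13 and 46 p300 reads after LPS, against 8 and 15 untreated, and also held 23 input reads, the most of any PU.1 site in the window.

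H3K4me1, mapped in untreated cells, was laid over the gene and over the upstream region. Its 28 peaks covered 24226 bp, 17.3% of the window, of which 5 lay wholly within the gene's span and 19 lay upstream of the promoter. A further peak, from 18735797 to 18736518, lay next to the promoter p300 site, with its centre 0.8 kb upstream, and is not among the 19. They held 987 H3K4me1 reads, against 163 input reads, a ratio of 6.01 with an exact 95% interval of 5.09 to 7.14 for counting error alone. Scaled by background bins in place of distinct reads, this ratio was 26.2 (22.2 to 31.2), so it depends on the scale. In the 27 regions with input reads the ratio was between 2.84 and 25.3, with a median of 6.10. The regions are peaks called on this same H3K4me1 library, with a control named input. Ratios above 1 therefore follow from the choice of regions and are a description. H3K4me1 peaks overlapped 16 of the 24 PU.1 sites, and no genome share was computed for this overlap.

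At the strongest p300 sites of the gene itself the H3K4me1 signal had a gap at its centre. At the promoter site there was 1 H3K4me1 read, against 11 input reads, and the 500 bp around its p300 summit held 0 H3K4me1 reads, against 5.75 per 500 bp on its flanks. At the site 6.0 kb downstream there were 3 H3K4me1 reads, against 4 input reads, with 1 read in the central 500 bp and 19.2 per 500 bp on the flanks. Centre below flank was seen at 4 of the 8 p300 sites with at least 20 flank reads, and in the genome at 55.2% of 9978 such sites, so the share in the window is near that background. At the 62.6 and 66.8 kb sites H3K4me1 had 35 and 30 reads, against 8 and 4 input reads. Both of these lay under H3K4me1 peaks of untreated cells, whereas at 53.2 kb there were 16 reads, against 9 input reads, and no peak was called.

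**Figure D4:**
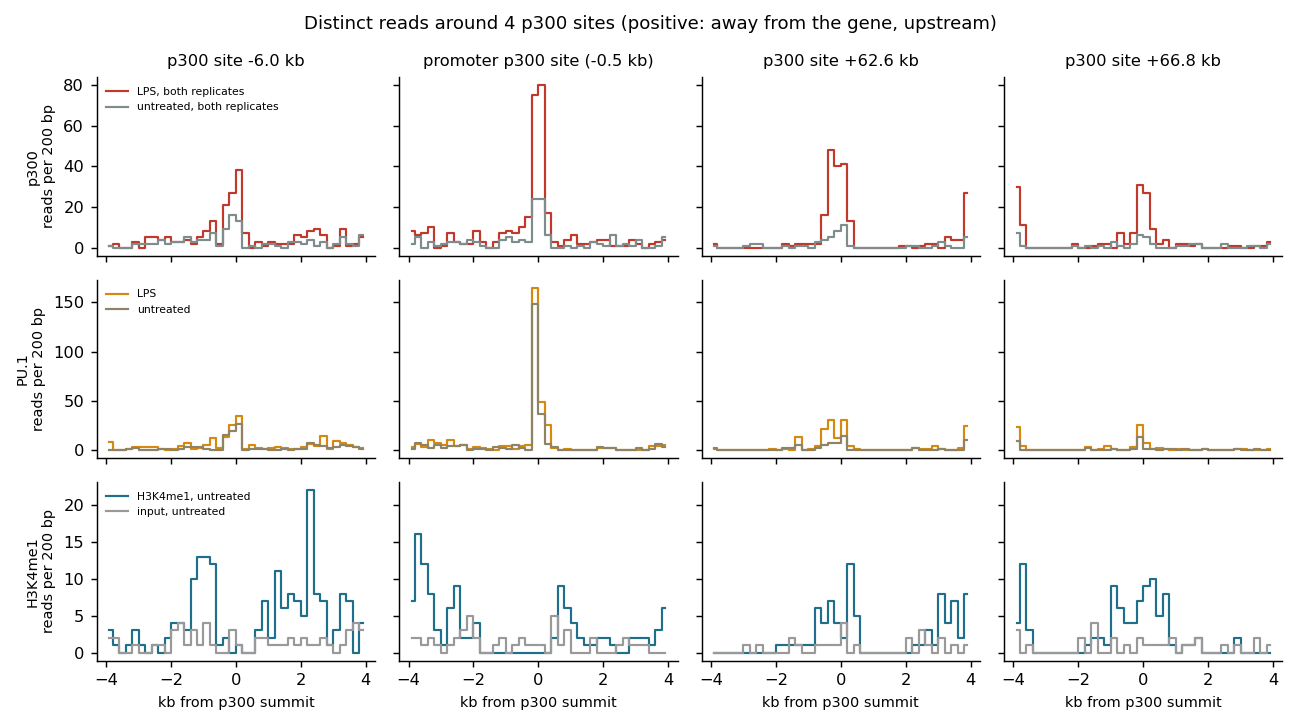
Reads around the 4 p300 sites with the most p300 reads in 200 bp bins, as distance in kb from the site's p300 summit, with p300 (both replicates summed) and PU.1 after LPS and in untreated cells and H3K4me1 and input of untreated cells. H3K4me1 falls to 0 reads at the centre of the promoter site, and the p300 and PU.1 summits stand within 107 bp of each other.

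p300 at the H3K4me1 regions gave the other test that did not use p300 peaks. Of the 28 regions, 23 could be tested, 21 of them with a higher level after LPS, and limma voom called 0 of the 23, against 0.0% of the 60164 regions tested in the genome. The smallest adjusted p was 0.732, at the region from 18801611 to 18802891 that covers the 66.8 kb site, whose log2 fold change was 2.19 ± 0.59 (SE). At an unadjusted p under 0.05 there were 3 of 23, against 3.28% of all regions, and fewer without LPS replicate 2, in the window and in the genome. Scaling by distinct reads or by background bins gave 1 each, against 773 and 585 of the 60164 regions, so the genome had fewer too. limma-trend called 0. Both LPS libraries were above both untreated libraries at 15 regions, against 16.4% of all regions, and below at 1, against 16.0%. The window was proposed with p300 results of these libraries in view, and 7 of the 28 regions overlapped a p300 peak. These shares are therefore not independent support. The median log2 fold change was 0.94 over the 23 regions and -0.01 over the genome.

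Over the whole window, including the sequence between peaks, p300 had 596 and 1253 reads in the LPS replicates, which are 108 and 216 RPM, against 473 and 587 reads in the untreated replicates, which are 73.6 and 99.2 RPM. PU.1 had 304 RPM after LPS, against 223 untreated, H3K4me1 had 242 and input had 112. The log2 ratio of p300, LPS over untreated, taken after adding 1 to each RPM, was 0.90, and 6 of the 17669 windows of 140 kb with at least 200 p300 reads were higher. The log2 ratio of PU.1 was 0.44, and 411 of 11539 windows with at least 200 PU.1 reads were higher. The window was proposed with p300 results of these libraries in view and does not lie on the fixed grid of the other windows. These ranks are a description and not independent support. The window was also rich in input, since 2.88% of 18225 windows had more input RPM and the median was 49.2. The part of this in the read totals was not tested.

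The share of the window's reads that fell inside the 33 merged regions was 50.0% and 68.0% in the p300 LPS replicates, against 33.0% and 56.4% in the untreated replicates. It was 78.5% for PU.1 after LPS and 82.8% for untreated PU.1, 73.8% for H3K4me1 and 35.5% for input. By Euclidean distance of log2 RPM (plus 1) over the 7 precipitated libraries, the 3 windows of 140 kb most like this one lay on chromosome 17 from 17920001 to 18060000, at a distance of 0.417, on chromosome 5 from 92680001 to 92820000, at 0.503, and on chromosome 1 from 107800001 to 107940000, at 0.644. The median distance over all windows was 6.54.

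The edges of the window fell in gaps between p300 peaks. The nearest p300 peaks outside it after LPS were at 18684540 to 18685040, with a score of 106.28, and at 19303818 to 19304345, with a score of 61.2. The outermost inside were the sites at 6.8 kb downstream, with a score of 62.3, and at 83.5 kb upstream, with a score of 87.68. In untreated cells the nearest outside were at 18663016 to 18663717, with a score of 281.81, and at 19022714 to 19022967, with a score of 70.15. In RefSeq's gene order (GRCm38.p6) the neighbour on the downstream side is Perp, and on the upstream side the order is the long non-coding RNA Gm51814, 1700124M09Rik, the pseudogene Tpi-rs5 and Gm20139. Their positions in mm9 were not assigned, so no site of the window is tied to one of them.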

How the data were processed

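Read positions and peak lists were deposited on mm9, per the submitters' processing notes. The aligner is not given in the sources used here. MACS made the peak lists, per the column descriptions deposited beside them, and the score the authors gave each peak is 10 times the -log10 p-value. Per the file headers, the control was named naked for p300, random for PU.1 and input for H3K4me1, and the untreated PU.1 list carries LPS in its header; it was kept as its sample is labelled. The 2 biological replicates were merged for p300 peaks, per the series' design text. Deposited read files hold positions, not counts.

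From these, reads were reduced to 1 per position and strand on chromosomes 1 to 19 and X (3.02% to 25.8% were duplicates), 5' ends were moved 100 bp downstream, and reads were counted in merged p300 sites, merged PU.1 sites and H3K4me1 peaks of the whole genome. Within each set, median-of-ratios scaling was applied to the 4 p300 libraries. Sites with at least 10 reads were fitted on treatment alone by limma voom (version 3.58.1 under R 4.3.3), and p was adjusted over all of them, with a threshold of 0.05. The fits were tested on simulated data. For single libraries, ratios have exact 95% intervals conditional on the sum (scipy 1.17.1), which cover counting error only. PU.1 ratios were scaled by the median ratio over all PU.1 sites, and H3K4me1 against input by distinct reads. Depth was between 5744811 and 7828655 aligned reads per library.

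The members and lists were chosen with earlier results of these data known. Named are the promoter, the 6 p300 sites with the most p300 reads and the 4 PU.1 sites with the most PU.1 reads; the other p300 sites are accounted for more briefly. Alternatives were scaling, read minimum, limma-trend, replicate block, duplicates, read shift, peak score and leaving out each replicate. Genes of the same pathway and cell type markers were not analysed here, as no annotation of mm9 was used.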

Additional observations from a re-analysis of the deposited data

How the results depend on the processing

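All 116 log2 fold changes of p300 computed at the 10 p300 sites under the other settings kept their direction; 83 stayed on their side of the threshold, 27 were no longer past it and 6 newly passed it. The number of p300 sites called higher was 4 as reported, against 1.97% in the genome. It was 0 with scaling by distinct reads or by background bins, which left 0 called in the genome too. It was 2 without the read minimum (354 of 19879 in the genome) and 3 with limma-trend (1.7%). With duplicates kept (459 of 19844 in the genome) or a read shift of 50 bp (377 of 19725) it was also 3. With peaks of a score of at least 100 it was 6 of the 6 that were left (20.8% called higher in the genome). With a replicate left out, no site was called, in the window or in the genome, except in the fit without untreated replicate 1. With distinct reads as the scale the genome had 0 calls, 1498 sites at an unadjusted p under 0.05 and a smallest adjusted p of 0.581. Treating the replicate number as a block called 7 p300 sites, 6 PU.1 sites and 1 H3K4me1 region, against 4.55%, 1.09% and 0.462% called higher in the genome. The sources do not say that the numbers pair the libraries, and deviations of same-numbered libraries correlated at 0.27, 0.19 and 0.14 in the 3 sets. Same-numbered p300 libraries were alike in duplicates. These were 4.03% and 3.02% in LPS and untreated replicate 1, against 25.8% and 22.0% in LPS and untreated replicate 2. limma-trend called 1 PU.1 site for p300. At the PU.1 site 78.7 kb upstream the p300 log2 fold change was -0.10 without LPS replicate 2 and -0.02 without untreated replicate 2, against 0.14 with all, and leaving out 1 replicate gave up to 0.43. The H3K4me1 to input ratio was 26.2 when scaled by background bins, against 6.01. With a score of at least 100, 2 of 2 untreated p300 peaks overlapped an untreated PU.1 peak. The causes were not tested. All 72 PU.1 ratios computed at PU.1 sites and 30 at p300 sites kept their side of 1 or moved by less than their interval. Few reads per library limit the weak sites.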

Other observations

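Outside the 33 merged regions, the Tnfaip3 window held 54.1 and 69.1 reads per 1000000 distinct reads (RPM) of p300 in LPS replicates 1 and 2, against 49.3 and 43.3 RPM in untreated replicates 1 and 2. PU.1 held 65.4 RPM there after LPS, against 38.4 RPM in untreated cells, with 1 library in each condition. H3K4me1 held 63.4 RPM and input 72.3 RPM in the same sequence, so the precipitated libraries of untreated cells and those after LPS were all below input between the peaks.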
